A study of Mus musculus with 6 samples.

Results

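The glycolytic isoenzyme genes Hk1, Hk2, Pfkm, Pfkl, Pfkp, Aldoa, Aldoc, Pkm, Ldha and Ldhb were followed in the cochlear modiolus of mice with degenerated spiral ganglion neurons (SGNs), the primary auditory neurons that carry signals from the hair cells to the brainstem. The genes were chosen by symbol, as enzymes of glycolysis that exist in several tissue forms, with earlier results of these data known. They were 10 of the 33676 genes with at least 1 listed transcript, and 9 of them were among the 14118 genes with enough counts to be tested; Hk2 was not.

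Libraries were made from the cochlear modiolus, the central bone around which the cochlea coils and in which the SGNs lie, of C57BL/6 male mice. The study's methods give 8 weeks as the age of the mice when the model was set up. The 3 control libraries came from saline-treated mice. The 3 degenerated libraries came from mice on day 30 after 1 g/kg kanamycin sulfate, an aminoglycoside antibiotic that kills hair cells, with 0.4 g/kg furosemide, a loop diuretic that adds to its toxicity. The labels name SGNs as the cell type, but the RNA is that of dissected tissue, without a sort of cells. No source says whether a library held 1 animal or a pool, or whether replicates were separate animals, so p-values measure the spread between these libraries only.

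Glycolysis turns glucose into pyruvate, and lactate dehydrogenase interconverts pyruvate and lactate. Several of its steps are served by enzymes from different genes, or from different exons of 1 gene, that differ between tissues in regulation and kinetics. Neurons are known for oxidative use of pyruvate and lactate, while glia, fast muscle and dividing cells are known for forms that favour lactate production.

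Libraries held between 12480876 and 15549319 counts over the listed transcripts. Counts were given per Ensembl transcript for 46.0% of the annotated transcripts, and none of the 10 genes had all of its transcripts listed, so each value describes the listed part of a gene. The listed parts held 45 of the 100 annotated transcripts under these symbols, counting those of a second gene ID annotated as Aldoa. Levels are in CPM, counts scaled to the size of the library and with edgeR's TMM factors, and values of replicates are given in the order 1, 2 and 3. A gene met the call rule when its unadjusted p in edgeR's quasi-likelihood test was under 0.01 and its log2 fold change was beyond 0.2 in either direction, and calls after Benjamini-Hochberg adjustment over the whole table, at 0.05, were made separately. All 18 neuron markers examined had a row and 17 were above 0 in every library. Their summed level was 12726 to 16371 CPM in control libraries against 7618 to 11101 CPM in degenerated ones. Most of this level came from Snap25, Calb2, Nefh, Nefm and Nefl.

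None of the 9 tested genes was called. Pkm and the listed part of Ldhb were lower in all 3 degenerated libraries than in any control library, while Hk1, Aldoa, Aldoc and Pfkp lay within a log2 fold change of 0.10 of 0 in either direction, with the sign of Pfkp turning under other scalings. Of all genes tested, 7.37% had 3 degenerated libraries below 3 control libraries and 10.3% the reverse, and of the 9 genes 2 (Pkm and Ldhb) and 0 did. In bulk tissue, fewer cells of a type and less RNA per cell cannot be told apart. By edgeR's quasi-likelihood test 0 of 9 met the call rule, against 2.73% of all genes tested, and 0 had an adjusted p under 0.05, against 0% of all genes. DESeq2 called 2 of the 9 (Pkm and Ldhb), against 5.60% of all genes it tested, and limma-voom 1 (Pkm), against 2.81%. At an unadjusted p under 0.05, 3 were lower (Pkm, Ldhb and Pfkm) and 0 higher, where 3.60% and 6.08% of all genes were. The 9 genes split into 4 with a higher and 5 with a lower mean, with a median log2 fold change of -0.06 beside -0.003 for all genes tested.

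**Figure D1:**
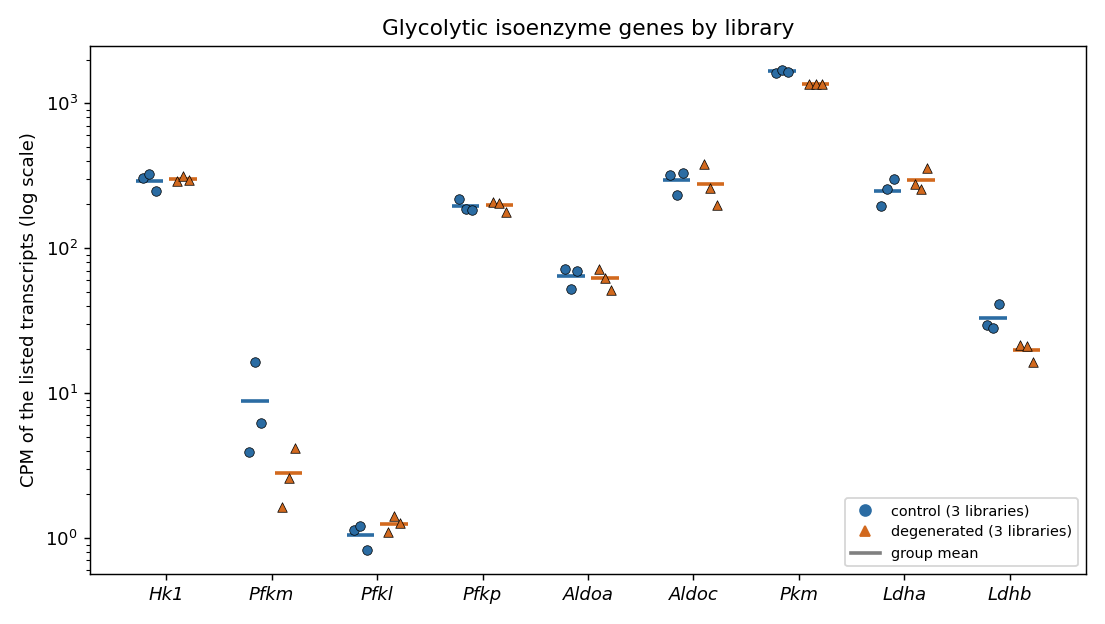
Level of each tested gene in every library, as CPM of the listed transcripts on a log axis; circles are the 3 control libraries, triangles the 3 degenerated libraries and bars the group means. The groups do not overlap for Pkm (control 1629 to 1697, degenerated 1350 to 1365) and Ldhb (28.3 to 41.0 against 16.4 to 21.5).

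Levels of different genes were compared on a scale that divides counts by transcript length, as TPM of the listed transcripts. The order is one of listed parts and depends on which transcripts had a row. Ldhb was measured through 1 transcript of 437 bases, and no main transcript of Hk1, Pfkl or Ldhb was analysed here. In control libraries Pkm stood first at 1361 ± 77.7 TPM (SD, n = 3), followed by Ldha at 286 ± 31.5, Aldoc at 208 ± 50.1, Ldhb at 137 ± 29.2, Hk1 at 125 ± 18.4, Aldoa at 102 ± 19.9 and Pfkp at 82.5 ± 11.1. Far below these came Pfkm at 5.55 ± 3.85 TPM and Pfkl at 2.74 ± 0.48 TPM. The libraries of Pkm, Ldha and Aldoc did not overlap each other in this order, whereas each neighbouring pair from Aldoc down to Pfkp overlapped, as did Pfkm and Pfkl. In degenerated libraries Ldhb, at 88.9 ± 13.5 TPM, stood below Hk1 (139 ± 11.6) and Aldoa (109 ± 15.4) and next to Pfkp (87.1 ± 12.9), and overlapped Aldoa and Pfkp but not Hk1. The order also turned at the bottom, with Pfkl at 3.68 ± 0.49 TPM and Pfkm at 1.97 ± 0.91 TPM.

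Hexokinase traps glucose in the cell by phosphorylating it, with Hk1 as the form of brain and most tissues and Hk2 as the form of muscle and growing cells. Hk1 (ENSMUSG00000037012, GRCm38 chr10:62268855-62379908, minus strand) had 304, 322 and 246 CPM in control libraries against 288, 315 and 296 CPM in degenerated ones. The groups overlapped, and the control libraries held both the highest and the lowest value. Its log2 fold change was 0.04 ± 0.13 (SE; adjusted p = 0.933 by edgeR's quasi-likelihood test). Almost all of the listed part was Hk1-202 (ENSMUST00000099691), with at least 99.8% of the listed Hk1 counts in every library. Its log2 fold change was -0.0015 ± 0.13, with a sign that turned with upper-quartile scaling. These values cover 6 of the 20 annotated transcripts of Hk1, and neither of those that the annotation marks as main was analysed here. Hk2 (ENSMUSG00000000628, GRCm38 chr6:82725025-82774454, minus strand) was represented only by short transcripts, of 594 and 505 bases. It had 6 counts in control replicate 3, 6 in degenerated replicate 1 and 0 in the other 4 libraries, and its main transcript was not analysed here.

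Phosphofructokinase commits sugar to glycolysis, and its subunits are named for muscle (Pfkm), liver (Pfkl) and platelet (Pfkp). Pfkp (ENSMUSG00000021196, GRCm38 chr13:6579768-6648777, minus strand) had the highest level among the listed transcripts, which lack the main transcript of Pfkl and hold 1 of 5 of Pfkm, with 217, 187 and 183 CPM in control libraries against 209, 205 and 177 CPM in degenerated ones. The groups overlapped, with the highest value in a control and the lowest in a degenerated library. The log2 fold change was 0.01 ± 0.12 (adjusted p = 0.985), and turned to -0.0050 with RLE size factors and to -0.0023 with upper-quartile factors.

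The log2 fold changes of the Pfkp transcripts went in both directions, and none of them met the call rule in edgeR's quasi-likelihood test. How the authors' counting assigned reads among transcripts that overlap is not stated. Pfkp-207 (ENSMUST00000138703), which holds 22 exons and codes for the protein, had 116, 118 and 99.9 CPM in control and 92.0, 91.5 and 91.9 CPM in degenerated libraries. All 3 degenerated libraries lay below all 3 control libraries, at a log2 fold change of -0.28 ± 0.12 (adjusted p = 0.688). Pfkp-212, a transcript of 16 exons and 8681 bases annotated as a retained intron, had 90.9, 67.1 and 66.9 CPM in control and 97.5, 99.9 and 80.7 CPM in degenerated libraries. These overlapped, with a log2 fold change of 0.31 ± 0.19 (adjusted p = 0.774). Pfkp-210, a retained intron transcript of 702 bases, had 1.37, 1.16 and 1.3 CPM in control and 3.13, 5.13 and 2.53 CPM in degenerated libraries. It was the only transcript of the 10 genes with a higher mean at an unadjusted p under 0.05, at a log2 fold change of 1.49 ± 0.40 (adjusted p = 0.557), and rested on 16 to 74 counts a library. With protein-coding transcripts alone the Pfkp gene had a log2 fold change of -0.29 (adjusted p = 0.491). The retained intron transcript Pfkp-208 had a log2 fold change of -0.55 (adjusted p = 0.873), and the coding Pfkp-201 had 154, 0 and 188 counts in control and 154, 4 and 1 counts in degenerated libraries, with no order by group.

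Pfkm (ENSMUSG00000033065, GRCm38 chr15:98092589-98132451, plus strand) was measured through Pfkm-202 alone of its 5 annotated transcripts. It had 3.91, 16.3 and 6.25 CPM in control and 1.64, 2.61 and 4.18 CPM in degenerated libraries. Control replicate 2 stood far above the rest, and control replicate 1 lay below degenerated replicate 3, so the groups overlapped. The log2 fold change was -1.65 ± 0.65 (adjusted p = 0.502), and -0.86 (adjusted p = 0.720) without control replicate 2. Its unadjusted p was under 0.05 in 8 of 15 alternatives. That library also had the highest sums of red blood cell markers, at 41487 CPM against 3481 to 21478 CPM in the other libraries, and of neutrophil and marrow markers, at 13557 CPM against 256 to 6707 CPM. In the red blood cell list 8 of 12 markers had a row, and in the neutrophil and marrow list 8 of 11. The sum of fast muscle markers, of which 16 of 18 had a row and Myh2 was at 0 in every library, was 288, 328 and 861 CPM in control libraries against 282 to 290 CPM in degenerated ones. Most of it outside control replicate 3 was Tpm1, with 264, 300 and 284 CPM in control and 261 to 269 CPM in degenerated libraries. Ckm, Myh1 and Myh4 had 92.8, 62.4 and 103 CPM in control replicate 3 and at most 0.752 CPM in the other libraries, while Tpm1, Pygm and Actn3 were not highest there. The sum of slow or cardiac muscle markers, all 9 with a row and Myh7 and Csrp3 at 0, was 103 to 410 CPM in control libraries against 286 to 366 CPM in degenerated ones. Nearly all of that sum was Tpm3, with 97.1 to 405 CPM in control and 283 to 360 CPM in degenerated libraries. The part of these cells in the Pfkm values was not tested.

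Pfkl (ENSMUSG00000020277, GRCm38 chr10:77986947-78010083, minus strand) had 13 to 20 counts a library from short transcripts, with its main transcript not analysed here. Its CPM were 1.13, 1.20 and 0.829 in control and 1.09, 1.41 and 1.26 in degenerated libraries, which overlapped (log2 fold change 0.25 ± 0.37, adjusted p = 0.857). At this depth a change of the listed part of Pfkl by a few counts could not be detected.

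Aldolase splits fructose bisphosphate into both triose phosphates, with Aldoa as the form of muscle and most tissues and Aldoc as the form of brain, where astrocytes and some neurons carry it. Aldoa (ENSMUSG00000030695, chromosome 7 of GRCm38, minus strand) had 72.3, 51.9 and 69.6 CPM in control and 72.2, 62.6 and 51.1 CPM in degenerated libraries. The groups covered nearly the same range, with a log2 fold change of -0.06 ± 0.20 (adjusted p = 0.943). Among its transcripts with 10 counts or more on average, Aldoa-203, which codes for the whole enzyme, had a log2 fold change of -0.41 ± 0.42 (adjusted p = 0.872). Aldoa-206, Aldoa-209 and Aldoa-212 had values of 0.11, 0.14 and 0.18. Of these, Aldoa-206 and Aldoa-209 are annotated as retained introns, and held 15.7% to 26.7% and 26.7% to 37.0% of the listed Aldoa counts. With protein-coding transcripts alone the Aldoa gene had a log2 fold change of -0.32 (adjusted p = 0.790).

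Aldoc (ENSMUSG00000017390, GRCm38 chr11:78322968-78327781, plus strand) had 322, 234 and 328 CPM in control libraries against 378, 260 and 199 CPM in degenerated ones. Degenerated libraries held both the highest and the lowest value, and the log2 fold change was -0.08 ± 0.27 (adjusted p = 0.943). Aldoc-201 made up most of it, with a log2 fold change of -0.12 ± 0.27 (adjusted p = 0.949), and Aldoc-206 had -0.25 ± 0.56 (adjusted p = 0.948). Central glia markers, 7 of 10 with a row, summed to 374 to 633 CPM in control libraries against 483 to 947 CPM in degenerated ones, which overlapped as well.

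Pyruvate kinase makes pyruvate and ATP in the last step of glycolysis. Pkm (ENSMUSG00000032294, GRCm38 chr9:59656368-59679375, plus strand) gives a constantly active M1 form, found in neurons and muscle, and an M2 form that metabolites regulate, found in glia, immune and growing cells, by using 1 of 2 neighbouring exons. Both exons have 167 bases, and only Pkm-202 of the listed transcripts held the M1 exon and only Pkm-201 the M2 exon. They are shown since they are the part that tells the forms apart, on the plus strand of GRCm38 with the 64 positions at which they differ in capitals (61.7% identity). Each is exon 9 of its transcript, at chr9:59675029-59675195 for M1 and chr9:59675568-59675734 for M2.
Pkm M1 exon: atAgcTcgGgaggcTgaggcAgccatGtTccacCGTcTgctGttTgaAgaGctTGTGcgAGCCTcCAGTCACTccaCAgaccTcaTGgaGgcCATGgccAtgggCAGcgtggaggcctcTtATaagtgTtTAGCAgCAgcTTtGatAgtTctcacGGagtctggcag
Pkm M2 exon: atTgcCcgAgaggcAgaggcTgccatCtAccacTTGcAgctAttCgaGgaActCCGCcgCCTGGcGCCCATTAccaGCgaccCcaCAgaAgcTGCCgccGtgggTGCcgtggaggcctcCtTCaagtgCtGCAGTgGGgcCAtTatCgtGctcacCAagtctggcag

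Summed over 8 of its 11 annotated transcripts, Pkm had 1629, 1697 and 1640 CPM in control libraries against 1350, 1365 and 1364 CPM in degenerated ones. All 3 degenerated libraries lay below all 3 control libraries, and the replicates lay close together. Group means were 1656 ± 36.7 and 1360 ± 8.19 CPM (SD, n = 3), a difference of -17.9%. The log2 fold change was -0.28 ± 0.09 (adjusted p = 0.421 by edgeR's quasi-likelihood test), and the adjusted p lay between 0.0252 (DESeq2) and 0.930 in the alternatives. Its unadjusted p was under 0.05 in 10 of 15 alternatives.

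The 2 forms of Pkm were then set apart by transcript. Pkm-202 (ENSMUST00000163694), with the M1 exon, had 836, 721 and 682 CPM in control libraries against 590, 362 and 404 CPM in degenerated ones. All 3 degenerated libraries were again the lowest, and the mean was 746 ± 80.2 against 452 ± 122 CPM (SD, n = 3), a difference of -39.4%. Its log2 fold change was -0.72 ± 0.21 (adjusted p = 0.591 over all transcripts tested), and without degenerated replicate 1 it was -0.96, which met the call rule. Pkm-201 (ENSMUST00000034834), with the M2 exon, had 790, 923 and 920 CPM in control libraries against 707, 734 and 845 CPM in degenerated ones. Here degenerated replicate 3 lay above control replicate 1, and the log2 fold change was -0.20 ± 0.11 (adjusted p = 0.746).

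**Figure D2:**
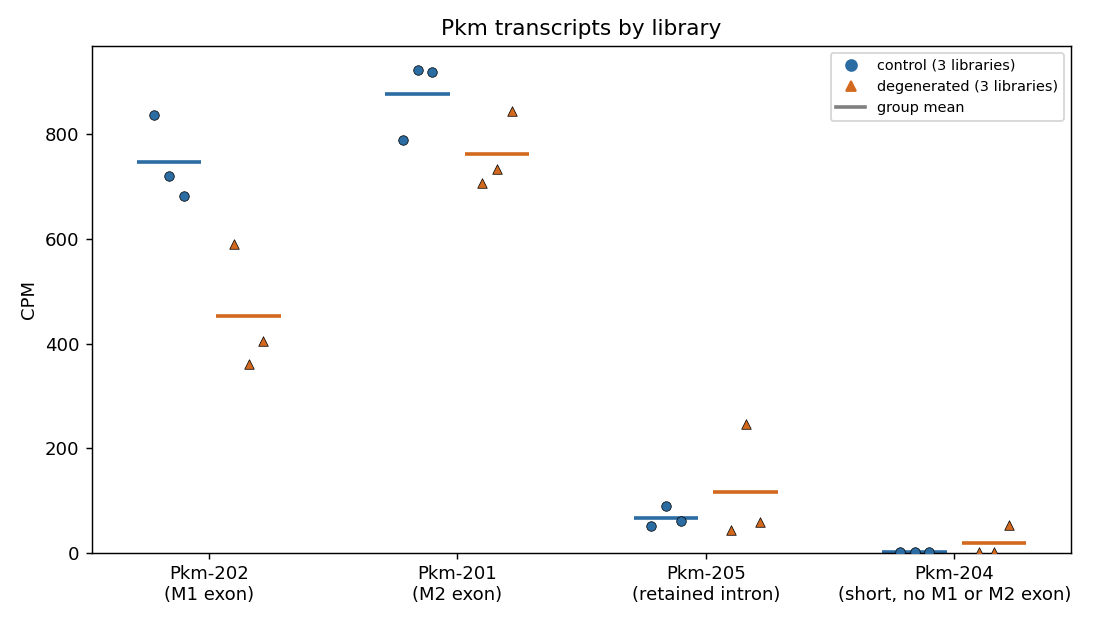
CPM of the 4 Pkm transcripts with a mean of 10 counts or more in every library; circles are control, triangles degenerated libraries and bars group means. Pkm-202, with the M1 exon, lay between 682 and 836 CPM in control libraries against 362 and 590 CPM in degenerated ones, while Pkm-201, with the M2 exon, overlapped between the groups and Pkm-205 was high in 1 degenerated library.

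Per length, transcripts with the M1 exon made up 55.8%, 48.2% and 46.9% of M1 and M2 together in control and 49.9%, 37.0% and 36.3% in degenerated libraries. Degenerated replicate 1 lay within the control range and the other two below it. The log2 ratio of M1 to M2 differed by -0.55 between the groups, with a two-sided exact permutation p of 0.3 (0.45 after Benjamini-Hochberg adjustment over 6 ratios), where 3 libraries against 3 cannot give less than 0.1. Pkm-202 and Pkm-201 share most of their exons, and how the authors' counting assigned reads on these is not stated, so the ratio may rest on more than reads over the exons shown.

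The other Pkm transcripts ended before these exons. Pkm-205, a retained intron transcript, had 752, 1228 and 935 counts in control and 645, 3551 and 750 counts in degenerated libraries, where replicate 2 alone was high (log2 fold change 0.80 ± 0.71, adjusted p = 0.850, and -0.37 without that library). Pkm-204, a short transcript annotated as coding, had 8 to 13 counts in control libraries and 7, 6 and 671 counts in degenerated libraries, where replicate 3 alone was high, and did not have enough counts to be tested.

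Lactate dehydrogenase is built of 4 subunits, and those of Ldha favour lactate while those of Ldhb, the heart form, favour pyruvate. Ldhb (ENSMUSG00000030246, GRCm38 chr6:142490249-142507957, minus strand) was measured through Ldhb-202 alone, a transcript of 437 bases over 2 exons at the 3′ end of the gene. It had 29.4, 28.3 and 41.0 CPM in control and 21.5, 21.3 and 16.4 CPM in degenerated libraries. The groups did not overlap, with means of 32.9 ± 7.02 and 19.7 ± 2.86 CPM (SD, n = 3), a difference of -40.0%. The log2 fold change was -0.74 ± 0.24 (adjusted p = 0.421 by edgeR's quasi-likelihood test), which lay between 0.0895 (DESeq2) and 0.702 in the alternatives. Its unadjusted p was under 0.05 in 11 of 15 alternatives. The main transcript of Ldhb, with 8 exons, was not analysed here, so these values stand for a small part of the gene.

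Ldha (ENSMUSG00000063229, GRCm38 chr7:46841475-46855627, plus strand) had 195, 255 and 298 CPM in control libraries against 276, 254 and 355 CPM in degenerated ones. The groups overlapped, and the log2 fold change was 0.24 ± 0.20 (adjusted p = 0.753). Per length, the listed part of Ldha exceeded that of Ldhb by a factor of 1.92, 2.58 and 1.87 in control and 3.74, 3.47 and 5.54 in degenerated libraries. All 3 degenerated libraries lay above all 3 control libraries, by 0.98 on the log2 scale, at the smallest two-sided exact permutation p that 3 libraries against 3 allow, 0.1 (0.3 after adjustment over the 6 ratios).

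Which Ldha transcript carried the counts differed between libraries of the same group. Ldha-214 (ENSMUST00000210815) had 2919, 3578 and 260 counts in control and 3922, 3553 and 280 counts in degenerated libraries. Ldha-201 (ENSMUST00000005051) had 0, 0 and 4138 counts in control and 0, 0 and 3952 counts in degenerated libraries. In replicate 3 of each group, 88.5% and 87.7% of the listed Ldha counts were therefore assigned to Ldha-201. In the other 4 libraries, 97.3% to 99.4% were assigned to Ldha-214. Ldha-210 followed Ldha-201, with 211 counts in control replicate 3, 207 in degenerated replicate 3 and 0 to 3 in the other libraries. Ldha-214 had a log2 fold change of 0.17 ± 1.19 (adjusted p = 0.987), and Ldha-206, with 11 to 40 counts a library, 0.01 ± 0.66 (adjusted p = 0.999), with a sign that turned with RLE size factors. Ldha-208 had 36 and 26 counts in degenerated replicates 1 and 3 and 0 in the other libraries.

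**Figure D3:**
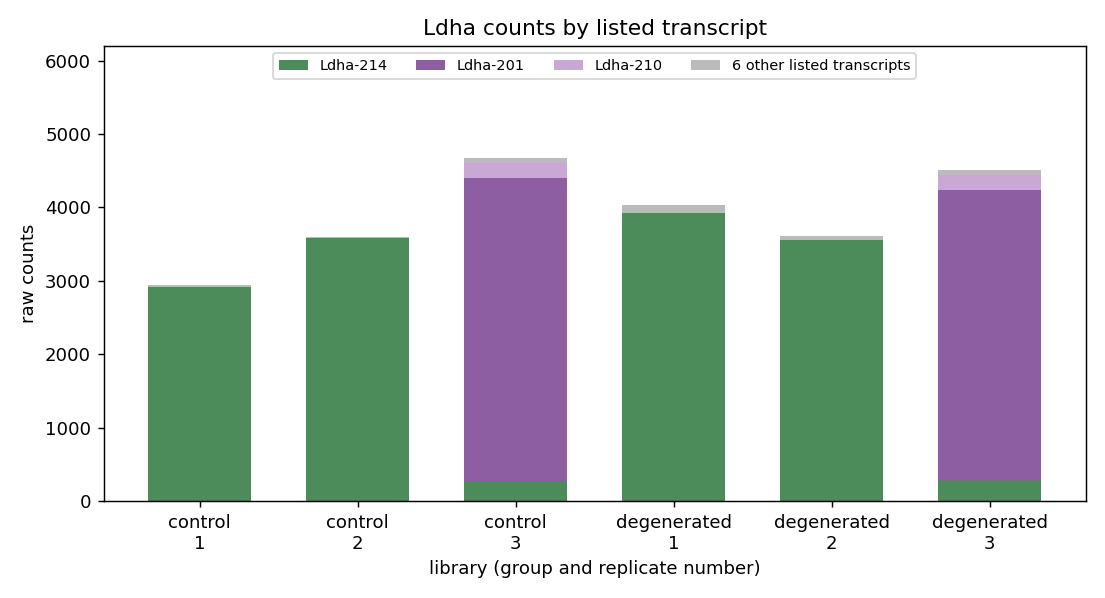
Raw counts of Ldha in every library, stacked by listed transcript. Most counts were assigned to Ldha-201 in replicate 3 of the control and of the degenerated group (4138 and 3952 counts). In the other 4 libraries most were assigned to Ldha-214 (2919 to 3922 counts).

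The coding parts of Ldha-201 and Ldha-214 differ in 1 place. Exon 3 of Ldha-201, at chr7:46848973-46849090 on the plus strand of GRCm38, is printed with the first 51 bases, which Ldha-214 lacks, in capitals, since these bases distinguish the transcripts that the libraries differed in.
Ldha exon: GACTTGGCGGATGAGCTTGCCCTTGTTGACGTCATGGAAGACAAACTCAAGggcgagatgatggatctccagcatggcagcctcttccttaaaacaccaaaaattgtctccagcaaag
The transcripts also start apart, Ldha-214 at position 46845841 and Ldha-201 at position 46847131 of chromosome 7. Ldha-202, which starts at position 46845839 and which the annotation marks as a main coding transcript beside Ldha-201, was not analysed here. How the authors' counting assigned reads on exons that Ldha-201 and Ldha-214 share is not stated, so the counts may not show which transcript was present. The cause of the difference between libraries was not tested.

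Since several genes of this pathway are known targets of hypoxia-inducible and E-box factors, RefSeq promoter windows of 300 bases (250 before and 50 after each start, GRCm38.p6, both strands) were searched for 3 motifs. ACGTG was found in 9 of 19 windows of these genes (7 of the 10 genes), and in 19.6% of all windows (21.8% of all genes). GCGTG was found in 10 of 19 windows (7 of the 10 genes) and in 32.4% of all windows (35.2% of all genes). The 10 genes had 19 windows, where all 27025 genes had 32851, so the shares per gene rest on unlike numbers of windows a gene. CACGTG, which holds ACGTG on both strands, was found in 2 of 19 windows, those of Ldha and Pfkm, and in 7.15% of all windows. The 250 bases before the upstream start of Ldha, close to the start of Ldha-214, held 5 matches to ACGTG, with each CACGTG counted on both strands, and are shown as the richest window among these genes, at chr7:46845554-46845803, plus strand, with the matches in capitals.
Ldha upstream of its start: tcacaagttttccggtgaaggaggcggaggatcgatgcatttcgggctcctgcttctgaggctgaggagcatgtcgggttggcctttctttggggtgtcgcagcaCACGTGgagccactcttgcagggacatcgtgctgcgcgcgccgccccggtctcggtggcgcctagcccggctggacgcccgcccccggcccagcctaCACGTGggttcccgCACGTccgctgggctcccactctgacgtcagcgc
The window of the downstream start of Ldha, at position 46847082, held 0 matches to ACGTG and 2 to GCGTG. A match is a string of letters and says nothing of binding in these libraries.

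Of the remaining isoenzyme ratios, per length, only the Pfkl share had groups that did not overlap. The log2 ratio of Aldoa to Aldoc differed by 0.11 between the groups (two-sided exact permutation p = 0.6) and the groups overlapped. Within phosphofructokinase, the share of Pfkm differed by -1.41 (p = 0.2) and that of Pfkp by 0.05 (p = 0.4) on the log2 scale in the same exact test, both with overlap. The share of Pfkl was higher in all 3 degenerated libraries, by 0.40 at an exact p of 0.1, on the 13 to 20 counts a library given above. Hk1 and Hk2 were not compared in this way, since Hk2 was at 0 in 4 libraries.

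**Figure D4:**
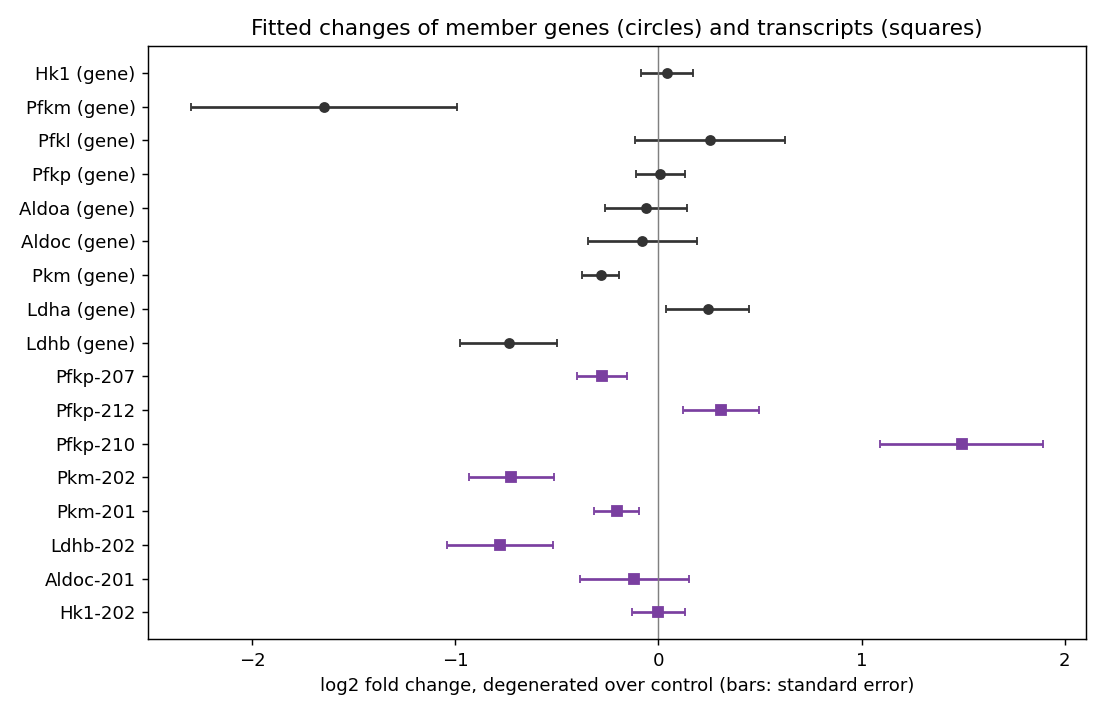
Log2 fold change, degenerated over control, of the tested genes (circles) and of 8 of their transcripts (squares), with bars of 1 standard error. Pkm, Ldhb and Pfkm lie below 0 by over 2 standard errors, as do Pkm-202, Ldhb-202 and Pfkp-207, and Pfkp-210 lies above 0 at 1.49.

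Across transcripts, 22 of the 45 listed ones were tested, 3 were at 0 in every library, and 0 met the call rule by edgeR's quasi-likelihood test, against 1.79% of all 26065 transcripts tested. At an adjusted p under 0.05 there were also 0, against 0.0153% of all transcripts. At an unadjusted p under 0.05, 3 were lower (Pkm-202, Ldhb-202 and Pfkm-202) and 1 higher (Pfkp-210), where 3.11% and 4.44% of all transcripts were. Pfkm-202 and Ldhb-202 are the whole listed part of their genes, with log2 fold changes of -1.69 ± 0.68 (adjusted p = 0.659) and -0.78 ± 0.26 (adjusted p = 0.611). Degenerated libraries lay wholly below control libraries for 3 of the 22 (Pfkp-207, Pkm-202 and Ldhb-202) and wholly above for 2 (Pfkp-210 and Ldha-207, at 2 to 12 counts a library), where 7.24% and 9.13% of all transcripts did. The median over the 22 was -0.11, beside 0.007 for all transcripts tested. DESeq2 called 2 of the 22 (Pfkp-210 and Ldhb-202), against 4.71% of all transcripts it tested, and limma-voom 1 (Pkm-202), against 1.74%.

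Other genes of the pathway were read from 2 lists of symbols. Of 23 other glycolytic enzymes, 20 had a row and 15 were tested. By edgeR's quasi-likelihood test 0 of them met the call rule and 0 had an unadjusted p under 0.05, with 3 higher and 12 lower means and a median log2 fold change of -0.22, where 7102 of all 14118 genes tested had lower means and the median was -0.003. Some of these rest on few or uneven counts of listed parts. Tpi1 had 38 to 63 counts a library and Pgk1 14 to 33. Gapdh had 11059, 970 and 811 counts in control and 914, 870 and 7001 counts in degenerated libraries. The well-counted Eno1 and Pgam1 had log2 fold changes of -0.02 and -0.03. DESeq2 and the fit with the replicate block each called 2 of the 32 tested genes of both lists together, where they called 5.60% and 1.54% of all genes. Eno2, the enolase of neurons, had 130, 95.3 and 97.7 CPM in control and 80.4, 93.0 and 65.7 CPM in degenerated libraries. All 3 degenerated libraries lay below the control libraries, although degenerated replicate 2 came within 3 CPM of them, and the log2 fold change was -0.43 ± 0.19 (adjusted p = 0.555). Of the 15 enzymes tested, 2 (Gpi1 and Eno2) lay wholly below and 0 wholly above, where 7.37% and 10.3% of all genes tested did.

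Of 24 regulators and transporters, 21 had a row and 17 were tested, with 10 higher and 7 lower means and a median of 0.03. Pdk4, a kinase that holds pyruvate back from mitochondrial oxidation, was the 1 gene of the 17 called, where 2.73% of all genes tested were. It had 123, 86.4 and 113 CPM in control libraries against 213, 172 and 158 CPM in degenerated ones, which did not overlap. The log2 fold change was 0.75 ± 0.18 (adjusted p = 0.342). The call was lost without control replicate 2 or 3 and without degenerated replicate 1 or 2, and the log2 fold change lay between 0.61 and 0.85 in the 6 fits that left out a library. Tigar, a phosphatase that lowers the activator of phosphofructokinase, had 55.5, 45.1 and 56.8 CPM in control and 36.2, 40.0 and 34.3 CPM in degenerated libraries. Here too the groups did not overlap, at a log2 fold change of -0.51 ± 0.16 (adjusted p = 0.421). Degenerated libraries lay wholly above control libraries for 1 of the 17 and wholly below for 1, where 10.3% and 7.37% of all genes tested did.

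Cell type markers differed between the groups beside Pkm-202, Ldhb and Eno2. Neuron markers had lower means in 14 of 18, and their sum was 16371, 12726 and 14604 CPM in control libraries against 9124, 11101 and 7618 CPM in degenerated ones. Most of that sum was Snap25, Calb2, Nefh, Nefm and Nefl. Tubb3, Uchl1 and Map2 lay near 0, with log2 fold changes of -0.04, -0.07 and 0.08, and the other higher means were those of Prph, Gata3 and Syp. The difference in the sum was -36.3% for neuron markers, -44.9% for hair cell, -33.2% for bone and cartilage, -60.4% for red blood cell and -64.4% for neutrophil and marrow markers, where Pkm differed by -17.9%, Pkm-202 by -39.4%, Ldhb by -40.0% and Eno2 by -25.9%. The red blood cell sums of the groups overlapped, at 6400 to 41487 CPM in control and 3481 to 16758 CPM in degenerated libraries. So did the neutrophil and marrow sums, at 256 to 13557 and 656 to 4697 CPM, with the lowest value in a control library. Hair cell markers, 11 of 12 with a row, summed to 898 to 1469 CPM in control libraries against 619 to 721 CPM in degenerated ones. Schwann and satellite glia markers, 10 of 12 with a row, overlapped at 5701 to 10007 and 5113 to 7951 CPM, and so did macrophage markers, 8 of 11 with a row, at 565 to 712 and 673 to 880 CPM. Bone and cartilage markers, 10 of 14 with a row, summed to 1266 to 1859 CPM in control libraries against 849 to 1246 CPM in degenerated ones. The part of these cells in the values of Pkm, Ldhb and Eno2 was not tested.

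**Figure D5:**
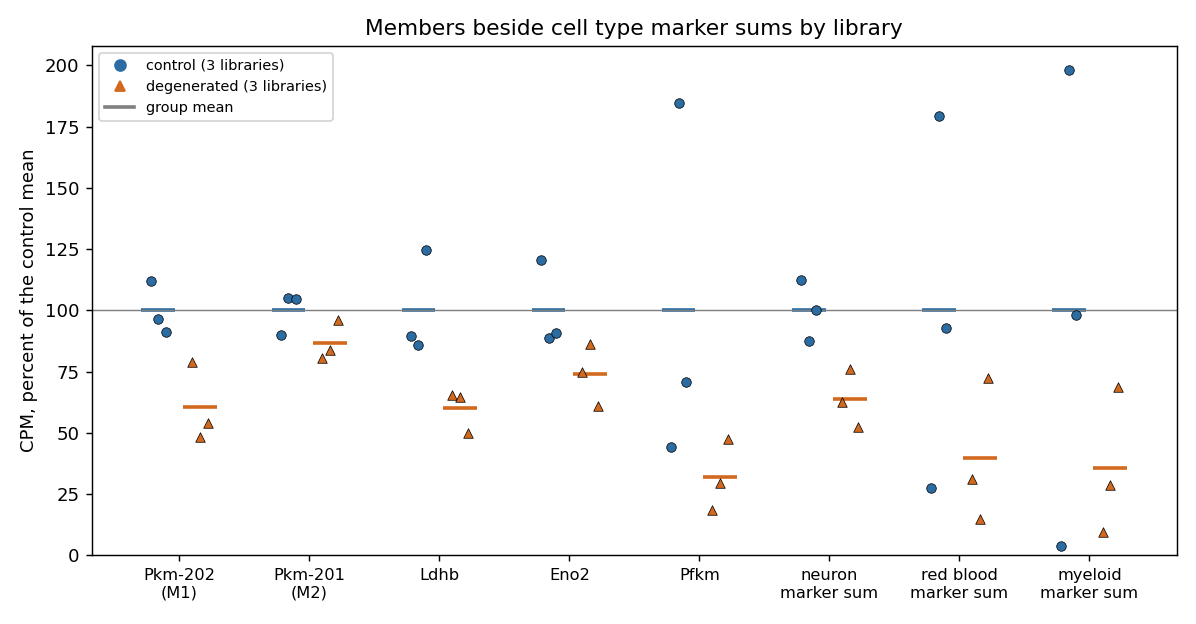
CPM in every library as a percent of the control mean, for 5 genes or transcripts and 3 sums of marker genes; circles are control, triangles degenerated libraries and bars group means. Pkm-202, Ldhb, Eno2 and the neuron marker sum have all degenerated libraries below all control libraries, while Pfkm and both blood sums are highest in control replicate 2. The hair cell sum and the bone and cartilage sum, which are not plotted, also have all degenerated libraries below all control libraries.

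For each gene the most alike of 8424 genes was taken as that with the smallest root mean square difference of centred log2(CPM + 1) over the 6 libraries. For Pkm this was Ppp5c, a phosphatase gene, at a difference of 0.0290, with 183, 186 and 180 CPM in control libraries against 156, 156 and 153 CPM in degenerated ones. For Ldhb it was the predicted gene Gm37422 at 0.0553, for Ldha Dcun1d5 at 0.0533 and for Pfkm Sema4a at 0.263, the largest of these differences. The others were Txnip for Hk1 at 0.0413, Meaf6 for Pfkp at 0.0294, Shroom3 for Pfkl at 0.0267, Fhl2 for Aldoc at 0.0188 and Top1mt for Aldoa at 0.0109. These differences depend on how far a gene itself varied, with a root mean square of its own centred values of 0.857 for Pfkm and 0.126 for Hk1. With 6 libraries, a close match among so many genes is a description of these libraries only.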

How the data were processed

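RNA of the cochlear modiolus was sequenced in 3 control and 3 degenerated libraries, grouped by their labels. The authors aligned reads with Hisat2 2.1.0 and used StringTie 1.3.3b, per the study's methods, while the submitters' processing notes name Bowtie 0.12.2, mm8 and mm10; how reads were counted, whether strand was used and the build are not stated in the labels or the study. The authors deposited raw counts per Ensembl transcript for 65535 transcripts, not normalized. Of these, 65272 (99.6%) matched GENCODE M21 (GRCm38), and 263, with 0.125% of counts, were left out.

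The fit was planned for counts per gene, so listed transcripts were summed to genes. A second gene ID annotated as Aldoa, with 0 to 2 counts a library, was kept apart. The list leaves out whole transcripts, and totals cover listed transcripts only. Genes and transcripts were tested separately in edgeR 4.0.16 (R 4.3.3; filterByExpr, TMM with factors of 0.983 to 1.02, robust quasi-likelihood F test), all 3 degenerated against all 3 control libraries, without covariates, with Benjamini-Hochberg adjustment over the whole table. CPM of transcripts carry their own TMM factors. The common biological coefficient of variation was 0.488 for genes and 0.694 for transcripts. SE is the fold change over the root of F. TPM were computed from counts and GENCODE lengths. Ratios were tested with exact permutation tests (scipy 1.17.1). The steps were tested on simulated data.

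Members and lists were chosen with earlier results of these data known. Named were all 10 genes, their transcripts with a mean of 10 counts or more, from the pathway lists each called gene and the 3 with the smallest p, and for each gene the most alike gene with a mean of 10 CPM or more. Alternatives were edgeR's exact test, limma-voom (limma 3.58.1), DESeq2 1.42.0, other scalings and filters, protein-coding transcripts only, genes with every transcript listed, a replicate block and leaving out each library. The authors' own comparisons were not used. Replicate numbers are shared between groups, and the labels do not say whether a number marks a shared litter, batch or day.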

Additional observations from a re-analysis of the deposited data

How the results depend on the processing

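Most values of the isoenzyme genes kept their direction. The log2 fold change of Pfkp turned to -0.0049 with DESeq2, -0.0050 with RLE size factors, -0.0023 with upper-quartile factors, -0.0083 without a filter on low counts and -0.29 with protein-coding transcripts only. That of Hk1-202 turned to 0.013 with limma-voom, 0.055 with upper-quartile factors and 0.0077 with the replicate block, and that of Ldha-206 to -0.010 with DESeq2, -0.010 with RLE size factors and -0.011 without the filter. With 1 library left out, values that changed sign ranged from -0.072 to 0.12 for Hk1, -0.049 to 0.080 for Pfkp, -0.20 to 0.060 for Aldoa, -0.37 to 0.11 for Aldoc, -0.12 to 0.073 for Hk1-202, -0.39 to 0.068 for Aldoc-201, -0.79 to 0.16 for Aldoc-206, -0.37 to 1.20 for Pkm-205, -0.59 to 0.70 for Ldha-206 and -0.36 to 0.72 for Ldha-214. Pkm stayed between -0.31 and -0.27, Ldhb between -0.84 and -0.56 and Pkm-202 between -0.96 and -0.58. The log2 ratio of Aldoa to Aldoc turned from 0.11 to -0.17 with protein-coding transcripts only, and the M1 to M2 ratio ranged from -0.81 to -0.39 and the Ldha to Ldhb ratio from 0.78 to 1.13 with 1 library left out. The cause was not tested.

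Of the 9 member genes, 2 were called with DESeq2 and 1 with limma-voom, and 0 in each fit that left out a library. Of the 22 member transcripts, 2 were called with DESeq2, 1 with edgeR's exact test, 1 with limma-voom, 1 with upper-quartile factors, and 0 to 1 with a library left out (Pkm-202 without degenerated replicate 1, and Ldha-208, at 0 in every control library, without degenerated replicate 2). Of all transcripts, DESeq2 called 4.71% and limma-voom 1.74%. That share was not taken for the other transcript fits, so their counts cannot be set against it. Of the pathway lists, 2 genes were called with DESeq2 (Pdk4 and Tigar), 0 among the 4 with every transcript listed, and 0 to 1 with a library left out (Pdk4, or Pfkfb3 without control replicate 3). Calls among all genes were 785 with DESeq2 (479 higher and 306 lower, against 284 and 101), 135 of 3470 among genes with every transcript listed (82 higher and 53 lower), and 258 to 497 with a library left out. At an adjusted p under 0.05 they were 383 with DESeq2, 115 with edgeR's exact test, 3 among genes with every transcript listed and 0 to 3 with a library left out. Without degenerated replicate 2, 144 of the 265 calls were higher. No member gene has every transcript listed, so that fit gives none of them a value, and Pfkl has none with protein-coding transcripts only.

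Correlations of 0.160, -0.090 and 0.067 between the deviations of same-numbered libraries did not all pass 0.1, so the numbers were not taken as pairs, although both libraries numbered 3 carried Ldha-201 (4138 and 3952 counts) and the other 4 had 0 counts of it. With the number as a replicate block, 218 genes were called (160 higher and 58 lower), 1 member transcript (Pkm-202, log2 fold change -0.75) and 2 genes of the pathway lists (Pdk4 and Hk3). The share of all transcripts called with the block was not taken. With 3 libraries a group, differences of the size seen in Hk1, Pfkp, Aldoa and Aldoc lay within 1 standard error.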
